A study of Mus musculus with 2 samples.

Results

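Dividing myeloid cells are the leukocytes of this lung dataset that carried the RNA of 2 genes switched on in cycling cells, Mki67, which encodes a protein that coats mitotic chromosomes, and Top2a, the topoisomerase that untangles replicated DNA. They were chosen by measured values. A barcode was taken when it held at least 3 UMIs (unique molecular identifiers, each counting 1 captured RNA molecule) of Mki67 and Top2a together and at least 2 UMIs of the leukocyte genes Ptprc, Coro1a and Cd52. Per 10000 UMIs it also had to stay below 500 for Sftpc, 1000 for Scgb1a1, 150 for Scgb3a1 and Bpifb1 together and 10 for Foxj1, Ccdc153 and Tmem212 together, which mark alveolar type 2 (AT2), club, goblet and ciliated cells. This gave 115 cells of 6983 barcodes, 50 of 3685 in the NAPH library and 65 of 3298 in the Control library.

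The study asked, by its title, how the airway epithelium of the adult mouse lung differs after an injury that the labels call NAPH. C57BL/6 lung cells that carried the epithelial adhesion protein Epcam were taken by flow sorting, and a droplet-based 3' kit tagged the RNA of each cell. The NAPH group is 1 library after the injury and the Control group is 1 library without it, both of the same strain, tissue and sort. The dose, the time after injury, the age and number of animals, and any pooling of animals are not given here by the labels. With 1 library per group there is no test between the groups. Every interval in parentheses is an exact 95% interval that covers counting error only, not differences between animals or preparations. Intervals of gene ratios treat summed UMIs as independent counts, so they also leave out the spread between cells.

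Conventional dendritic cells sample airborne material under the airway epithelium and carry it to lymph nodes to prime T cells. The type 1 branch depends on the transcription factors Irf8 and Batf3 and presents captured antigen on MHC class I, while the type 2 branch depends on Irf4 and primes helper T cells. Both arise from bone marrow precursors that keep dividing for a time in the tissue, under the growth factor Flt3 ligand, whereas alveolar macrophages, the resident phagocytes of the air space, sustain themselves by local division under the cytokine GM-CSF.

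Leukocyte genes were part of the rule, so their detection only describes the members. Ptprc, one of those genes and the pan-leukocyte phosphatase CD45, had UMIs in 39 of 50 NAPH members (78%) and 52 of 65 Control members (80%). Among AT2 cells, 1.22% and 0.498% had one, at median depths of 9586 and 7677 UMIs, against 13556 and 12410 in the members. Barcodes that met the leukocyte minimum were kept out of the AT2 class. Its low Ptprc rate was therefore set in part by that choice and is no independent background. Irf8, which the rule did not use, was detected in 60% of NAPH and 75.4% of Control members, against 3.22% and 1.49% of AT2 cells. Top2a had UMIs in 48 of 50 and 65 of 65 members and Mki67 in 41 and 57, as the rule required of at least one of them.

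Markers of other leukocytes were few in the members, apart from Ighm. The T cell gene Cd3e had no UMI in either library's members. No UMI of the 12 genes on the list for T cells, NK cells and innate lymphoid cells was found in 42 of 50 NAPH and 62 of 65 Control members. The neutrophil list of 12 genes summed to 23.8 and 15.4 CPM (counts of UMIs scaled to 1000000 per group of cells) in NAPH and Control, and the mast cell and basophil list to 17.8 and 6.44 CPM. The B and plasma cell list summed to 126 and 139 CPM, of which Ighm, the heavy chain of immunoglobulin M, made 110 and 130 CPM. Cd79a, Cd79b, Pax5, Jchain and Mzb1 of that list had no UMI in the members of either library. Per cell, the rule's leukocyte genes gave a median of 34.5 UMIs in NAPH and 29 in Control, and no member of either library sat at the minimum of 2, the lowest having 4.

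Although the cells had passed an Epcam sort, the epithelial list of 12 genes summed to 241 CPM in NAPH and 301 CPM in Control members, against 2882 and 2585 CPM in AT2 cells. Cldn18, a lung tight junction gene, stood at 10.4 CPM in NAPH and 11.6 CPM in Control members, against 514 and 603 CPM in AT2 cells. Cldn4 had no UMI in either group of members, nor had Nkx2-1 and Elf3 in NAPH. Epcam itself stood at 106 CPM in NAPH and 130 CPM in Control members, against 170 and 193 CPM in AT2 cells, and at 159 and 210 CPM in myeloid cells without Mki67 or Top2a. Here and below, non-dividing cells are those with no UMI of Mki67 or Top2a, whatever their other cycle genes. The whole AT2 list of 12 genes, Sftpc among them, summed to 5786 CPM in NAPH and 3869 CPM in Control members. In the non-dividing myeloid cells it summed to 7135 and 3104 CPM. Beyond a filter on genes that free RNA could reach, the part of this RNA in the results was not tested.

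The members were deep cells. Their median was 13556 UMIs in NAPH and 12410 in Control, against 7600 and 7689 in the myeloid cells with no UMI of either gene. Median detected genes were 3146 and 2964, against 1979 and 2005. The rule asked members for raw UMIs and the other cells for none, which favours deep barcodes among the members. Their depth is therefore no independent trait. The libraries held 38497783 UMIs in NAPH and 41699755 in Control, of which the members gave 672815 and 776965. The libraries shared 14 barcodes, 0 of them members, and Scrublet, a doublet caller, marked 1 member in each library among the 109 and 87 barcodes that scored highest. At the threshold, 6 NAPH and 8 Control members had exactly 3 UMIs of Mki67 and Top2a, and just outside it 4 and 7 myeloid cells had 2.

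Dendritic against macrophage identity was read per cell from 10 marker lists of 12 genes, by the list with the most detected genes, with at least 3 and no tie. The names rest on RNA alone, so dendritic and macrophage below mean dendritic-like and macrophage-like. Dendritic identity led in both libraries, with 47 of 50 NAPH members (94%, 83.5 to 98.7) and 55 of 65 Control members (84.6%, 73.5 to 92.4). Macrophage identity was held by 1 NAPH member (2%, 0.0506 to 10.6) and 9 Control members (13.8%, 6.53 to 24.7). The ratio of these shares, NAPH over Control, was 0.144 (0.0033 to 1.04), an interval that includes 1. Lists tied in 2 NAPH members and 1 Control member, which were left unresolved. They had 14 and 12 dendritic against 2 and 4 macrophage markers in NAPH, and 11 against 1 in Control.

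By branch, type 1 dendritic cells were the majority, with 30 NAPH members (60%) and 45 Control members (69.2%). Type 2 dendritic cells numbered 16 (32%) and 9 (13.8%), a share 2.31 times as large in NAPH (0.962 to 5.93). Alveolar macrophages numbered 1 and 7, monocytes or interstitial macrophages 0 and 2, and mature dendritic cells, which carry the lymph node homing receptor gene Ccr7, 1 and 1. No member was plasmacytoid, and a count of 0, with 3 counts as its limit, allows shares of up to 6% of 50 and 4.62% of 65 cells.

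Marker counts set the identities, and they show how near to each other the cells lay. Type 1 members of each library had 11 to 20 of the 48 dendritic markers detected (median 15) and at most 5 of the 24 macrophage markers. The NAPH alveolar macrophage had 6 dendritic and 11 macrophage markers, and the 7 Control ones had 3 to 5 dendritic and 9 to 15 macrophage markers. The 2 Control monocytes or interstitial macrophages lay between, with 10 dendritic and 6 macrophage markers in one and 5 and 6 in the other. The leading list was ahead by 1 marker or less in 5 members of each library.

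**Figure D1:**
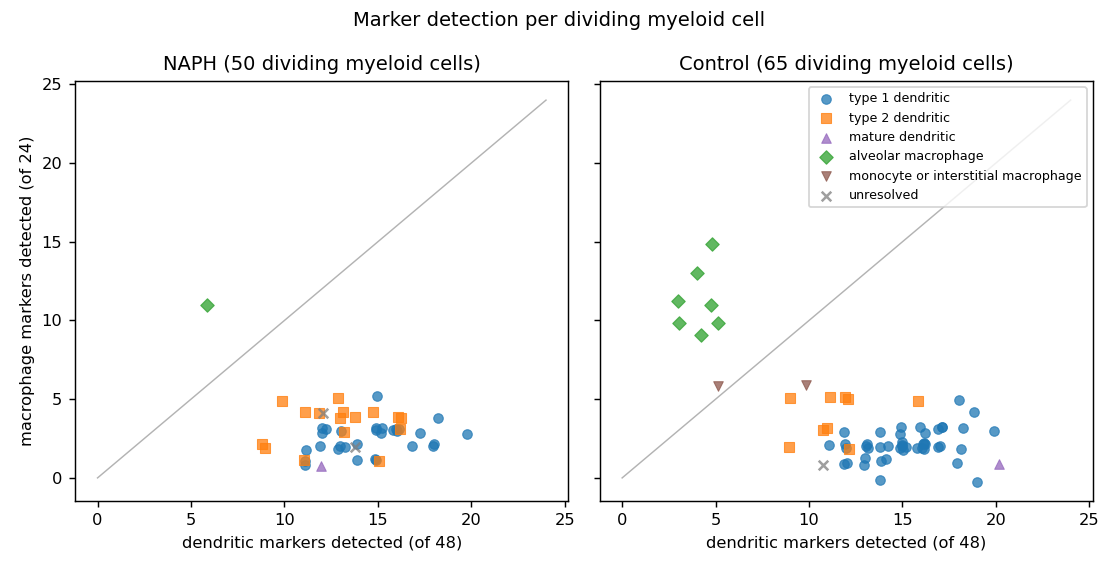
Detected dendritic markers (x axis, of 48) against detected macrophage markers (y axis, of 24) in each of 50 NAPH (left) and 65 Control (right) dividing myeloid cells, with a small random shift so that points do not hide each other; colours and shapes give the leading marker list and the line marks equal numbers. The dendritic cells lie below the line with at most 5 macrophage markers, and above it are 1 NAPH and 7 Control alveolar macrophages and 1 Control monocyte or interstitial macrophage.

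The share of barcodes that were dividing myeloid cells was 1.36% in NAPH (1.01 to 1.78) and 1.97% in Control (1.52 to 2.51), a ratio of 0.688 (0.466 to 1.01). Cells that met the leukocyte and epithelial limits, dividing or not, were 511 NAPH barcodes (13.9%) and 452 Control barcodes (13.7%). Of these, 9.78% in NAPH and 14.4% in Control met the dividing rule, a ratio of 0.68 (0.461 to 0.999). The 511 NAPH cells include 17 of T, NK or innate lymphoid and 4 of B or plasma cell identity. Without them 50 of 490 NAPH cells (10.2%) were dividing and the ratio was 0.71 (0.481 to 1.04), an interval that includes 1. With every barcode thinned to 3514 UMIs before the rule was applied, the members were 0.353% of NAPH and 1.09% of Control barcodes, a ratio of 0.323. NAPH was lower at both depths, by different factors.

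By identity, the libraries were closest in type 1 dendritic cells at full depth. Of type 1 dendritic cells, 30 of 190 in NAPH (15.8%) and 45 of 262 in Control (17.2%) were dividing, a ratio of 0.919 (0.559 to 1.49). Thinned, these shares were 2.73% and 8.88%, so that their likeness was not seen there. The thinned shares rest on few cells and are given without intervals. The UMI minimum of the rule stayed the same after thinning, so fewer dividing cells could reach it. Whether the libraries differ at equal depth was therefore not settled. Of type 2 dendritic cells, 16 of 191 (8.38%) and 9 of 71 (12.7%) were dividing, a ratio of 0.661 (0.275 to 1.7), and thinned the shares were 4.28% and 4.41%.

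Among cells of macrophage identity, 1 of 63 in NAPH (1.59%) and 9 of 95 in Control (9.47%) were dividing, a ratio of 0.168 (0.00382 to 1.21). For alveolar macrophages alone these were 1 of 46 (2.17%) and 7 of 93 (7.53%). The makeup of the non-dividing myeloid cells differed between the libraries too. There, type 1 dendritic cells were 34.7% in NAPH and 55.4% in Control, type 2 dendritic cells 37.5% and 16.8%, and alveolar macrophages 10.3% and 22%.

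**Figure D2:**
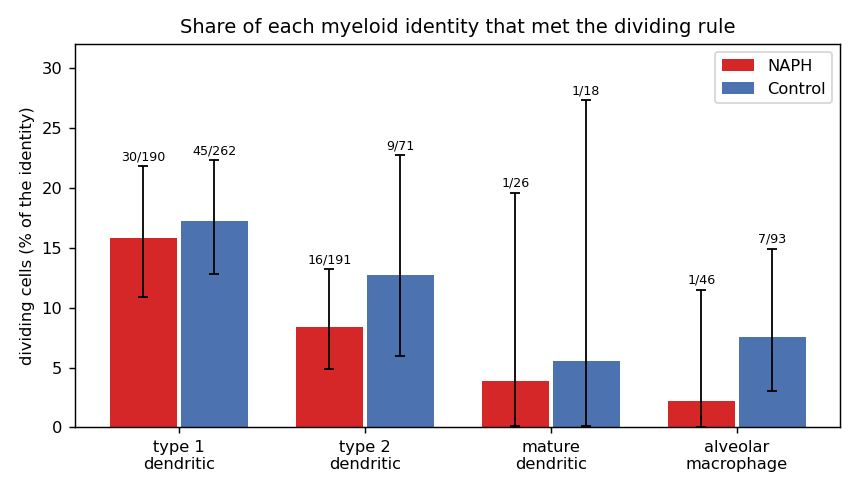
Share of the cells of each identity that met the dividing rule (y axis, percent), NAPH in red left of Control in blue; bars give the share, error bars the exact 95% binomial interval and numbers the dividing cells over all cells of the identity. Type 1 dendritic cells had 15.8% and 17.2%, and alveolar macrophages 2.17% and 7.53%, with intervals that overlap in every identity.

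The cell cycle genes that went with Mki67 and Top2a were described within type 1 dendritic identity, where both libraries had the most members and where dividing and other cells share a marker class. The comparison set 30 NAPH and 45 Control members against 148 and 201 type 1 cells with no UMI of either gene. Since those genes chose the cells, all ratios of this comparison are a description. Of genes with at least 50 UMIs, 8.07% in NAPH and 8.02% in Control were at least 2 times higher in the dividing cells, and 1.96% and 2.24% were at least 2 times lower. In both libraries at once, 5.14% were higher and 0.554% lower. A gene that is silent in other cells reached that minimum only through the dividing cells, so the counts of listed genes below are no support for the lists.

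Many genes of mitosis share promoter elements, so the start regions of Top2a, Mki67, Ube2c and Mcm6 are shown here. The CHR (cell cycle genes homology region), written TTTGAA or TTCGAA, and the CCAAT box are read by the MuvB and NF-Y complexes in G2 and mitosis, and the E2F element, written TTTGGCGC, TTTCCCGC, TTTGCCGC or TTTCGCGC, by E2F factors at the entry into S phase. Top2a and Mki67 chose the cells, Ube2c was among the 10 genes that the ratio rule named, and Mcm6 is a replication gene picked for its E2F match. Each window runs from 250 bases before to 50 bases after the start of the gene, on the gene's own strand, from RefSeq on GRCm38.p6. The Top2a window is chr11:99024140-99024439 on the minus strand, Mki67 chr7:135716330-135716629 on the minus strand, Ube2c chr2:164769679-164769978 on the plus strand and Mcm6 chr1:128359656-128359955 on the minus strand. Capitals mark a CHR, CCAAT or E2F match on either strand.
Top2a: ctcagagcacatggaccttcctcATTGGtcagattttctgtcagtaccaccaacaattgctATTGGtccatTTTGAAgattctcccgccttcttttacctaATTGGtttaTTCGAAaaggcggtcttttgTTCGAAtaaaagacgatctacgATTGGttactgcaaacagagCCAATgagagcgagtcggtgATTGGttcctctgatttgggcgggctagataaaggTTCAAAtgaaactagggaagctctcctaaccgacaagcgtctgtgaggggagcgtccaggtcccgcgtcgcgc
Mki67: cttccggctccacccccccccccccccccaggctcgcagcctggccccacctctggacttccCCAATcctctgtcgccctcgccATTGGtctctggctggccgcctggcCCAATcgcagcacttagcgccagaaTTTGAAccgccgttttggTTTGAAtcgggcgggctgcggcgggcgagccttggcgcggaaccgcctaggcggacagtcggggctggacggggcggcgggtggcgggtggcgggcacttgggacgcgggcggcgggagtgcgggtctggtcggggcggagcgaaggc
Ube2c: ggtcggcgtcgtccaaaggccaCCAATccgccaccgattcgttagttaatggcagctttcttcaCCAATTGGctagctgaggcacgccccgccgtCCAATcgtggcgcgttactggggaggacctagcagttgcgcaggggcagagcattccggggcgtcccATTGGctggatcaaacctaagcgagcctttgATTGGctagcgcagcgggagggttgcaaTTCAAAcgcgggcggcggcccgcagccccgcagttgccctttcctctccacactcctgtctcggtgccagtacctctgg
Mcm6: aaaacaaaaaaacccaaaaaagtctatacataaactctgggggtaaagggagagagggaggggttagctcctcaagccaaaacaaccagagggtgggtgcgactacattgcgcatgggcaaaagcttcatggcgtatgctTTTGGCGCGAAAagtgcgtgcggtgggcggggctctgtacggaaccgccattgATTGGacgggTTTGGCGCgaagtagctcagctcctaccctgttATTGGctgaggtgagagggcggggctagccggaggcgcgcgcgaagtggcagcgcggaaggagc

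The Top2a window held 4 CHR and 6 CCAAT matches, that of Mki67 2 and 3, and that of Ube2c 1 and 6, of which 2 CCAAT matches on opposite strands overlap. The Mcm6 window held 3 E2F matches, 2 of them overlapping, and 2 CCAAT matches. The windows of Nusap1 and Birc5, which also followed Top2a and Mki67, held none of these letters. That of Rrm2 held 1 CCAAT match and no CHR or E2F match, and those of Cdca3, Cdca8 and Cenpf held 1 CHR match each.

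Pooled by role, a CHR match was found in 71% of 62 promoters of the mitosis lists, in 25% of 36 promoters of the replication lists and in 19.2% of all 32851 promoters of the table. CHR and CCAAT together were found in 58.1%, 13.9% and 7.52%. An E2F match was found in 8.06%, 33.3% and 2.26%. Single lists did not all follow their pool: CHR stood in 43.8% of promoters of the licensing list and in 41.7% of the list for the anaphase-promoting complex, and E2F in 23.5% of the kinetochore list and 20% of the DNA synthesis list. These promoters cover 58 of 67 mitosis genes and 31 of 39 replication genes. A match is a description of letters and not of binding.

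Genes of mitosis differed widely between dividing and other type 1 cells. Ube2c, which marks mitotic cyclins for destruction, stood at 615 CPM in dividing and 7.91 CPM in other cells of the NAPH library, 77.7 times higher (42.7 to 157). In Control it stood at 551 and 4.8 CPM, 115 times higher (57.6 to 268). Birc5, the survivin gene of the chromosomal passenger complex, stood at 490 and 2.88 CPM in NAPH (170 times) and at 492 and 3 CPM in Control (164 times).

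Nusap1, which bundles spindle microtubules, had 76 UMIs in the 30 NAPH members and 100 in the 45 Control members and none in the other cells. With 3 counts taken as the limit over all the other cells, this is at least 79.9-fold higher in NAPH and at least 96.9-fold in Control. The kinetochore and chromosome structure list had 10 of 10 tested genes at least 2 times higher in NAPH and 12 of 12 in Control, with a median log2 ratio of 5.02 and 5.09. The spindle and cytokinesis list had 3 of 3 and 5 of 5, at 4.64 and 4.60. The median over all tested genes was 0.17 and 0.12.

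Mitotic regulators followed the same pattern. Of the kinase and checkpoint list, 2 of 2 tested genes in NAPH and 2 of 3 in Control were higher, among them Aurkb, the kinase that corrects faulty chromosome attachment, at 150 against 2.16 CPM (69.4 times, 22.7 to 345) and 183 against 3 CPM (61 times, 25.3 to 192). Of the list for the anaphase-promoting complex and proteolysis, 6 of 7 and 7 of 9 were higher. Foxm1, a transcription factor of mitotic genes, had 28 UMIs in NAPH and 20 in Control members and none in the other type 1 cells.

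The cyclins split by type. Ccna2, the cyclin of S phase and G2, had 133 and 131 UMIs in the NAPH and Control members against 1 UMI in the other cells of each library, ratios of 419 (74 to 16688) and 381 (67.2 to 15152). Cdk1, the kinase of mitotic entry, was 35.3 and 76.5 times higher, and Ccnb2, a partner of Cdk1, 31.8 and 35.4 times. The D cyclins, which carry growth factor signals into the cycle in G1, did not go with them as a group. Ccnd3 stood at 302 against 138 CPM in NAPH (2.18 times, 1.74 to 2.74) and at 197 against 109 CPM in Control (1.8 times). Ccnd1 stood at 159 against 143 CPM (1.11 times) and at 143 against 213 CPM (0.673 times), and Ccnd2 at 15.9 against 28.8 CPM (0.552 times, 0.209 to 1.24) and 64.6 against 135 CPM (0.478 times, 0.328 to 0.679).

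Replication genes were higher by smaller factors, and the other type 1 cells held more of their RNA. Mcm6, a subunit of the replicative helicase, stood at 86.2 against 15.8 CPM in NAPH (5.45 times) and at 101 against 12.6 CPM in Control (8.03 times). Pcna, the sliding clamp of DNA polymerases, was 3.81 and 4.66 times higher. Rrm2, the cell-cycle-regulated subunit of ribonucleotide reductase, differed by more, with 83 UMIs against 1 in NAPH and 144 against 4 in Control. The licensing and helicase list had 3 of 3 tested genes at least 2 times higher in NAPH (median log2 2.48) and 6 of 6 in Control (3.10), and the DNA synthesis list 5 of 6 (2.09) and 9 of 9 (2.94).

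Chromatin assembly genes were higher too, some of them at high levels. Hmgb2, a chromatin protein, stood at 2381 against 121 CPM in NAPH (19.7 times, 16.7 to 23.3) and at 2251 against 119 CPM in Control (18.9 times, 16.3 to 22.1). Per cell, Hmgb2 ranged from 3.55 to 44.7 per 10000 UMIs with a median of 24.6 in the type 1 members of NAPH, and from 3.77 to 49.3 with a median of 21.4 in those of Control. Stmn1, which destabilises microtubules, was 22.6 and 43.6 times higher, and Tuba1b, an alpha tubulin gene, 15 and 15.1 times. In this list 9 of 9 tested genes in NAPH and 10 of 10 in Control were at least 2 times higher.

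Among the inhibitors of cyclin-dependent kinases, Cdkn2c, which encodes p18 and blocks the partners of the D cyclins, was also higher in the dividing cells. It stood at 143 against 16.5 CPM in NAPH (8.64 times, 5.28 to 14.6) and at 185 against 22.2 CPM in Control (8.33 times, 5.68 to 12.5). The list had 2 of 3 and 3 of 3 tested genes at least 2 times higher.

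**Figure D3:**
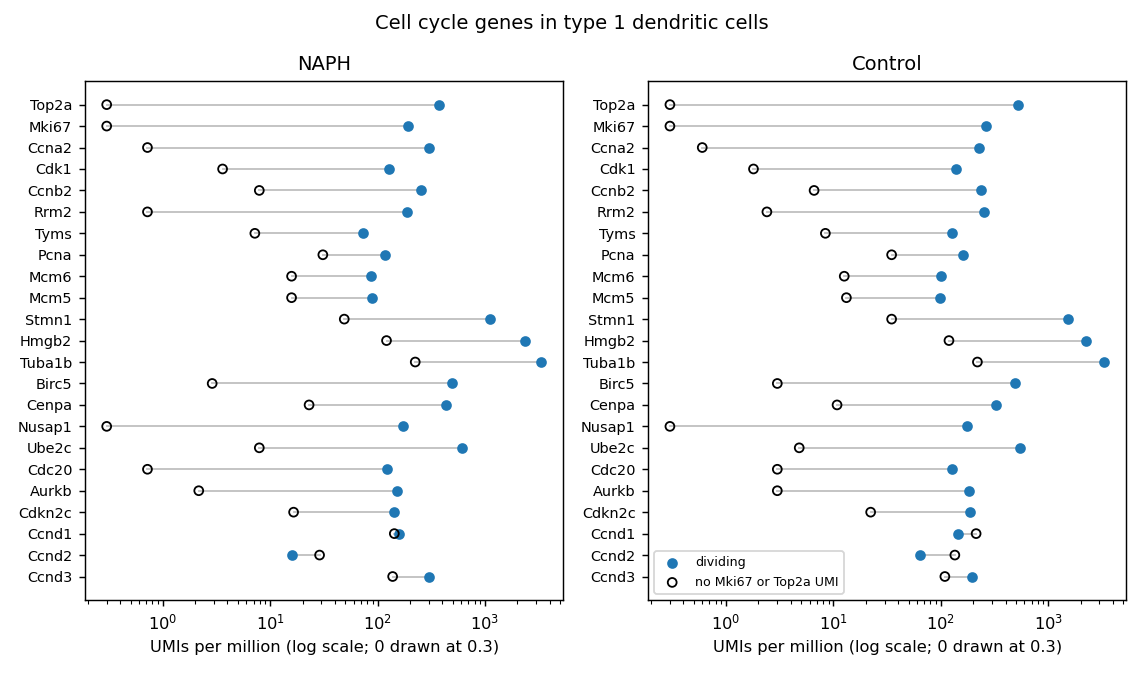
Level of 23 cell cycle genes (x axis, CPM, log scale, 0 drawn at 0.3) in type 1 dendritic cells of NAPH (left) and Control (right); filled points are dividing cells, open points cells with no Mki67 or Top2a UMI, whose 0 for these genes is set by the rule. Genes of mitosis such as Birc5 are set apart by a wide gap (490 and 2.88 CPM in NAPH), replication genes such as Pcna by a smaller one, and Ccnd1 and Ccnd2 were not higher than 2-fold in either library.

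The genes of type 1 dendritic identity were close between dividing and other type 1 cells, although these were the genes that set the identity. Irf8 stood at 1104 against 1348 CPM in NAPH (0.819 times, 0.74 to 0.906) and at 1101 against 1328 CPM in Control (0.829 times, 0.758 to 0.907). Batf3 was at 0.985 and 1.01 times. Outside the marker lists, H2-Aa, an MHC class II chain, was at 0.913 (0.879 to 0.95) and 0.94 times (0.907 to 0.974), and Cd74, the chaperone of MHC class II, at 0.708 and 0.781 times. No member of the MHC class II list (12 tested), the MHC class I list (11), the dendritic transcription factors (8) or the growth factor receptors (6) passed 2-fold in either direction in either library.

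Of 6 tested chemokine genes, 2 were at least 2 times lower in dividing type 1 cells of each library, 0 higher. Both, Ccl17 and Ccl22, are on the marker lists of type 2 and mature dendritic cells. Those lists helped to set the classes, so the 2 ratios only describe them. Ccl17, a ligand of the receptor Ccr4 on T cells, stood at 281 against 1072 CPM in NAPH (0.262 times, 0.217 to 0.315) and at 478 against 1099 CPM in Control (0.435 times, 0.382 to 0.494). It had UMIs in 15 of 30 dividing and 64 of 148 other cells in NAPH and in 27 of 45 and 125 of 201 in Control. Ccl22, the other ligand of Ccr4, had 0 UMIs in NAPH members and 94 in other type 1 cells, and 15 against 118 UMIs in Control (0.369 times, 0.2 to 0.634), where they came from 2 dividing and 21 other cells. Aldoa, a glycolytic aldolase, was at 0.432 and 0.294 times, the only gene of 10 in its list past 2-fold. Of the lists for lysosome, lipid handling, interferon response, inflammatory mediators, macrophage transcription factors and cholesterol synthesis, no tested gene passed 2-fold in either library. In the list for MYC and ribosome biogenesis, Ran was higher in both libraries, Nop56 higher in Control and Srm lower in NAPH.

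Over all identities together, 6.22% of genes in NAPH and 7.22% in Control were at least 2 times higher in dividing cells, and 5.89% and 5.47% at least 2 times lower. The 10 named as highest, after Top2a, Ccna2 and Mki67, were Nusap1, Cdca3, Rrm2, Ube2c, Birc5, Cdca8 and Cenpf, all cell cycle genes. Among the genes named as lowest, Lpl, Ear2 and Ctsd are macrophage genes, and macrophages were 2% of NAPH and 13.8% of Control members. Ear2 was not held by macrophages alone, and stood at 331 CPM in NAPH and 191 CPM in Control non-dividing type 2 dendritic cells. Ctsd, the protease cathepsin D, stood at 44.6 against 376 CPM in NAPH and 190 against 610 CPM in Control, but within dendritic identity, where it was within reach of free RNA, at 14.1 against 29 CPM and 14.5 against 13.4 CPM. Ccl5, a T cell attracting chemokine, was low within dendritic identity too, at 0 UMIs against 420 in NAPH, which came from 24 of 332 other cells. In Control it was at 6 against 629 UMIs, but each of these sums came from 1 cell, so the Control ratio rests on single cells. The lymphoid cells of NAPH are among the other cells of this comparison and outside that within dendritic identity.

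In type 2 dendritic cells, 8 of 8 tested chromatin assembly genes in NAPH and 7 of 7 in Control were at least 2 times higher in dividing cells, and in the Control macrophages 6 of 6. The list of cyclins, their kinases and E2F factors had 3 of 7, 2 of 5 and 2 of 4. The share over all genes is not given for these comparisons, so the counts only describe the lists. Hmgb2 was 15 times (12.3 to 18.5) higher in the 16 dividing type 2 cells of NAPH and 12.3 times (9.33 to 16.4) in the 9 of Control than in other type 2 cells. In the 9 Control macrophages Hmgb2 was 16.6 times (12.4 to 22.5) and Birc5 111 times (35.8 to 554) higher than in other macrophages. Chil3, the chitinase-like protein of alveolar macrophages, remained at 8112 against 9209 CPM there, and H2-Aa stood at 2626 against 684 CPM (3.84 times, 3.23 to 4.56), against 1017 CPM in AT2 cells of that library. These 9 cells include both Control cells of monocyte or interstitial macrophage identity, so dividing and other macrophages differ in makeup, and H2-Aa was detected in 6 of 9 dividing and 57 of 80 other cells, with 115 of its 213 UMIs in 1 dividing cell.

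Replication RNA and mitosis RNA were summed per cell over 39 and 67 listed genes, without Mki67 and Top2a. Replication RNA had a median of 21.4 per 10000 UMIs in NAPH members (quartiles 11.3 and 34.5) and 32.9 in Control members (17.2 and 45.7). Mitosis RNA was close, at 70.8 (47.4 and 85.9) and 71.6 (44 and 98.9). In the other myeloid cells the medians were 2.98 and 3.10 for replication and 6.02 and 6.48 for mitosis. Their highest values were 42.4 in NAPH and 41.5 in Control for replication and 36.4 and 39.6 for mitosis, inside the members' range. With cells thinned to 3514 UMIs the members' medians were 19.9 and 31.3 for replication and 66.9 and 71.1 for mitosis.

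The lower replication RNA of NAPH members was seen in both branches. In type 1 members it was 17.9 in NAPH and 25.1 in Control, and in type 2 members 25.2 and 38.4. Mitosis RNA was 71.9 and 71.6 in type 1 members and 64.1 and 49.9 in type 2 members. The 9 Control macrophages had 41.6 for replication and 113 for mitosis, and the lone NAPH macrophage 5.7 and 76. Replication RNA exceeded mitosis RNA in 8 NAPH and 14 Control cells. The quartile ranges of the libraries overlap, and at the threshold of 3 UMIs the medians were already 32.16 in NAPH and 42.46 in Control for replication and 32.22 and 27.59 for mitosis.

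**Figure D4:**
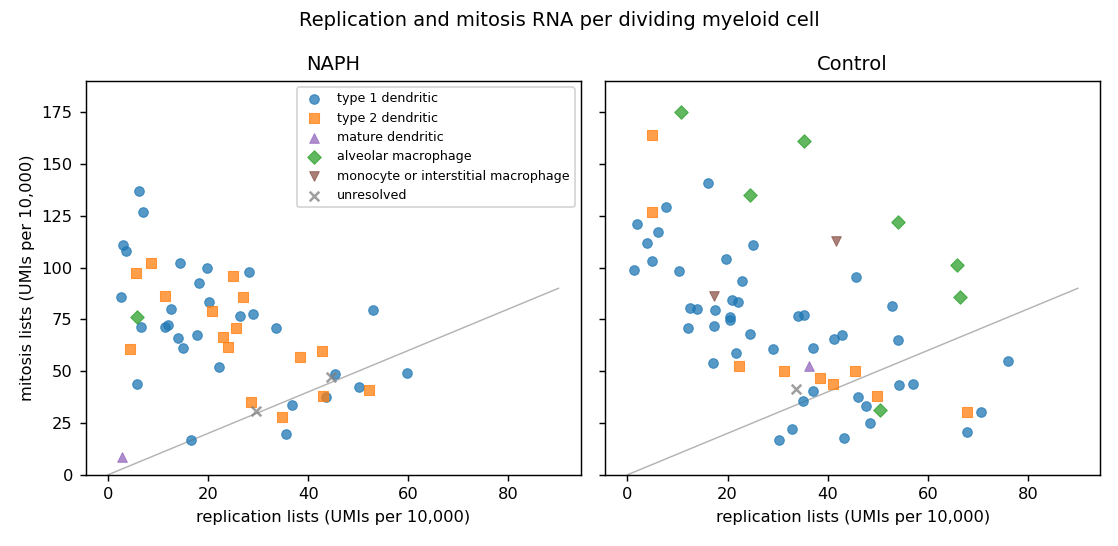
Summed RNA of the replication lists (x axis, UMIs per 10000) against that of the mitosis lists (y axis, UMIs per 10000) in each dividing myeloid cell of NAPH (left) and Control (right), by identity; the line marks equal values. Above the line are the cells with more mitosis than replication RNA, and 8 NAPH and 14 Control cells lie below it.

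Dendritic and macrophage members were set against each other with both libraries pooled, 102 dendritic cells and 10 macrophages, of which 1 was from NAPH. Of 3165 genes, 13.2% were at least 2 times higher in the dendritic members and 13.7% at least 2 times lower. Genes of the marker lists set the classes, so their ratios, such as those of Irf8, Ccl17, Chil3, Fabp1 and Ear2, only describe them. The NAPH side of the macrophages rests on a single cell.

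Antigen presentation was higher in the dendritic members. Of the MHC class II list, 10 of 12 tested genes were at least 2 times higher and 1, the protease gene Ctss, was lower, with a median log2 ratio of 1.78 against -0.08 over all genes. H2-Ab1 stood at 8612 against 1507 CPM (5.72 times, 4.85 to 6.78), and Cd74 at 19386 against 4654 CPM (4.17 times), close to the 4393 CPM in NAPH and 4302 CPM in Control of AT2 cells, which also express it. Of the MHC class I list, 5 of 11 were higher, among them the peptide transporter gene Tap1 (118 against 51.6 CPM, 2.28 times, 0.956 to 7.12). Ckb, a creatine kinase, stood at 959 against 31 CPM and Irf5, a transcription factor of inflammatory cytokine genes, at 256 against 10.3 CPM (24.8 times, 4.43 to 984). The dendritic transcription factor Id2 was 10.1 times higher (5.98 to 18.4).

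Lysosomal and lipid genes were higher in the macrophages. Of the lysosome list, 10 of 11 tested genes were at least 2 times lower in the dendritic members (median log2 -1.94), with Lyz2, the macrophage lysozyme, at 1070 against 9835 CPM. Of the lipid list it was 6 of 7 (median -2.59), with Plin2, which coats lipid droplets, at 99.6 against 599 CPM. Cebpb, a transcription factor that alveolar macrophages depend on, stood at 9.05 against 1961 CPM (0.00462 times, 0.00234 to 0.00825). Krt19, an epithelial keratin, stood at 6.03 against 495 CPM with UMIs in 8 of the 10 macrophages, while Apoe, at 12.1 against 1104 CPM, came from 1 of the 10 macrophages.

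The D cyclins separated the identities. Ccnd1 had 203 UMIs in the dendritic members and none in the 10 macrophages, at least 4.95-fold higher with 3 counts as the limit, and within Control 107 and 0. Ccnd3 stood at 248 against 92.9 CPM (2.67 times, 1.39 to 5.89) and Ccnd2 at 50.5 against 206 CPM (0.245 times, 0.147 to 0.426). Cdk6, a kinase partner of the D cyclins, stood at 32.4 against 103 CPM (0.314 times) and Cdk4, the other partner, at 192 against 92.9 CPM (2.06 times, 1.07 to 4.56). In the other Control macrophages Ccnd1 had 3 UMIs and Ccnd2 stood at 360 CPM.

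Genes of mitosis were lower or level in the dendritic members. Of the kinase and checkpoint list, 4 of 9 tested genes were at least 2 times lower and 0 higher, with Plk1, the polo-like kinase of mitotic entry, at 33.2 against 114 CPM (0.292 times, 0.149 to 0.628). Of the spindle list it was 3 of 12, with the motor gene Kif11 at 67.1 against 206 CPM (0.325 times, 0.199 to 0.558). Mki67 and Top2a, which chose the cells, stood at 223 against 413 CPM and 443 against 764 CPM. The macrophages were the shallower cells, with a median of 9312 UMIs in the 7 Control alveolar macrophages, against 13210 in the Control type 1 members, and the part of depth in these differences was not tested.

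Type 1 and type 2 members differed in the genes of their branch and little in the cycle. Of 2896 genes, 6.84% were at least 2 times higher in the 75 type 1 members and 2.38% at least 2 times lower than in the 25 type 2 members. Irf8, a marker that helped to set the branch, had UMIs in 29 of 30 NAPH and 45 of 45 Control type 1 members and 0 UMIs in the 25 type 2 members, against 1118 in all, at least 109-fold higher by that limit. Cd36, a scavenger receptor gene, stood at 169 against 6.75 CPM (25 times, 6.81 to 208). Of the MHC class I list, Tap2, Psmb9 and Tapbp were higher of 11 tested, and of the MHC class II list Cd86 was higher and Ctss, H2-DMb2, H2-Oa and H2-Eb1 lower of 11. Of the 9 cell cycle lists, Ncaph, a condensin subunit, was the only gene past 2-fold (57.2 against 23.6 CPM). Ccnd1 was at 0.871 times (0.63 to 1.22) and Ccnd3 at 0.866 times (0.673 to 1.12).

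NAPH and Control were compared over the dividing dendritic cells, 47 and 55 cells, to hold the macrophage share apart. Of 2932 genes, 1.23% were at least 2 times higher in NAPH and 0.853% at least 2 times lower. Among type 1 members alone these shares were 0.64% and 1.28% of 2345 genes, and over all members 1.15% and 1.37% of 3212. The cycle lists showed few such genes. Fbxo5, which restrains the anaphase-promoting complex, was at 45.6 against 92.8 CPM (0.491 times, 0.305 to 0.773), and no other gene of the 9 cycle lists passed 2-fold. The licensing list and the DNA synthesis list each had a median log2 ratio of -0.38, with 0 of 9 and 0 of 14 genes past 2-fold, against 0.01 over all genes.

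Ms4a6d, a membrane protein gene of myeloid cells, had the largest ratio of the 10 genes named as highest in NAPH, which had to reach 100 CPM and lie beyond the reach of free RNA. It stood at 104 CPM in NAPH and 29 CPM in Control dendritic members (3.58 times, 2.14 to 6.23), with UMIs in 26 of 47 and 16 of 55 cells and at most 8 and 2 UMIs in a cell. In type 1 members the ratio was 3.19 (1.53 to 7.12) and in type 2 members 2.49 (1.18 to 5.84). Lgals1, which encodes the sugar-binding protein galectin-1, stood at 930 and 480 CPM (1.94 times, 1.69 to 2.22). That ratio pools branches whose shares differ between the libraries. Per cell, Lgals1 ranged from 0.59 to 39.2 per 10000 UMIs with a median of 6.67 in NAPH. In Control it ranged from 0 to 14.6 with a median of 4.05, so that the ranges of single cells overlap.

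Tgfb1, the gene of the cytokine TGF-beta 1, stood at 200 CPM in NAPH and 97.2 CPM in Control (2.05 times, 1.52 to 2.8), with UMIs in 42 of 47 and 38 of 55 cells. It was 2.17 times higher in type 1 members. Wfdc17, a secreted protein gene of macrophages and dendritic cells, stood at 192 and 68.2 CPM (2.81 times, 1.99 to 4.03), and at 2.08 times (0.887 to 5.12) within type 1 and 1.43 times (0.964 to 2.15) within type 2 members. Plet1, which lies on the alveolar macrophage list, stood at 92.7 and 21.8 CPM (4.26 times, 2.39 to 8.09), with 46.7% of the Control UMIs in 1 cell. The Plet1 ratio also pools the branches, and was 1.74 (1.13 to 2.77) in non-dividing type 2 cells. Erdr1 was 2.58 times higher and is listed by RefSeq as a transcribed pseudogene, so its count is uncertain.

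Ccl17, a gene of the type 2 marker list that helped to set the branches, went different ways in the 2 branches. Over the dendritic members it stood at 1367 CPM in NAPH and 621 CPM in Control (2.2 times, 1.96 to 2.48). In type 2 members it stood at 3467 and 759 CPM (4.57 times, 3.63 to 5.82), but in type 1 members at 281 and 478 CPM (0.588 times, 0.472 to 0.73). A single NAPH type 2 cell with 340 UMIs gave 52.1% of the type 2 total there, single cells gave 36.3% and 37.6% of the type 1 totals, and the type 2 medians were 9.42 per 10000 UMIs in NAPH and 1.34 in Control. Ccl22, at 135 and 40.6 CPM, came from 4 NAPH and 3 Control cells, with 66.3% and 46.4% of it in 1 cell, while 1 Control cell of unresolved identity, outside this comparison, held 53 UMIs.

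Ifi27l2a, an interferon-inducible gene, was the lowest in NAPH. It stood at 83.3 CPM in NAPH and 399 CPM in Control dendritic members (0.209 times, 0.153 to 0.281), with UMIs in 15 of 47 and 33 of 55 cells. The ratio was 0.139 within type 1 and 0.197 within type 2 members. Ccl6, a chemokine gene of myeloid cells, stood at 77 and 233 CPM (0.33 times, 0.234 to 0.457), with 0.213 times in type 1 and 0.829 times (0.437 to 1.6) in type 2 members.

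Of the type 1 marker list, 1 of 11 tested genes was at least 2 times lower in NAPH over the dendritic members and 0 of 11 within type 1 members, where the median log2 ratio was 0.00. That gene, Clec9a, the receptor for dead cells, stood at 59.7 and 120 CPM (0.496 times, 0.329 to 0.737) and within type 1 members at 0.595 times (0.394 to 0.883). Tlr3, a sensor of double-stranded RNA on the same list, was at 0.518 times, and at 0.592 times within type 1 members. Furin, a protease gene, was at 0.46 times and Egr1, an immediate early gene, at 0.517 times. H2-Q7 stood at 86.4 and 183 CPM (0.473 times), with a near copy in H2-Q6 that makes its count uncertain. Irf8 was at the same level within type 1 members, 1104 and 1101 CPM.

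The same ratios in non-dividing dendritic cells, from the same 2 libraries, are given beside those of the dividing ones. Of the 36 genes at least 2 times higher in NAPH among dividing dendritic cells, 29 were also higher and 10 of them past 2-fold in the non-dividing ones, and of the 24 lower ones with enough UMIs in both sets 22 were also lower and 6 past 2-fold. The share of all genes that were higher or lower in the non-dividing cells is not given, so these counts are no replication. The pooled values mix branches whose shares differ between the libraries, so values within a branch are given. In non-dividing type 1 cells, Ms4a6d was 2.33 times higher, Lgals1 1.7 times and Tgfb1 1.93 times, while Ccl17 was at 0.976 times (0.911 to 1.05). In non-dividing type 2 cells they were at 1.48, 1.35, 1.48 and 3.06 times. Ifi27l2a was at 0.244 times in type 1 and 0.503 times in type 2 cells, Ccl6 at 0.232 and 0.656 times and Egr1 at 0.421 and 0.386 times. Lsr, a lipoprotein receptor and tight junction gene, was 1.83 times higher (1.23 to 2.75) in NAPH among dividing dendritic cells, at 112 and 60.9 CPM, but at 0.719 times (0.581 to 0.888) in the non-dividing ones, where it was at 0.818 times (0.639 to 1.04) in type 1 and 1.08 times (0.597 to 2.04) in type 2 cells.

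**Figure D5:**
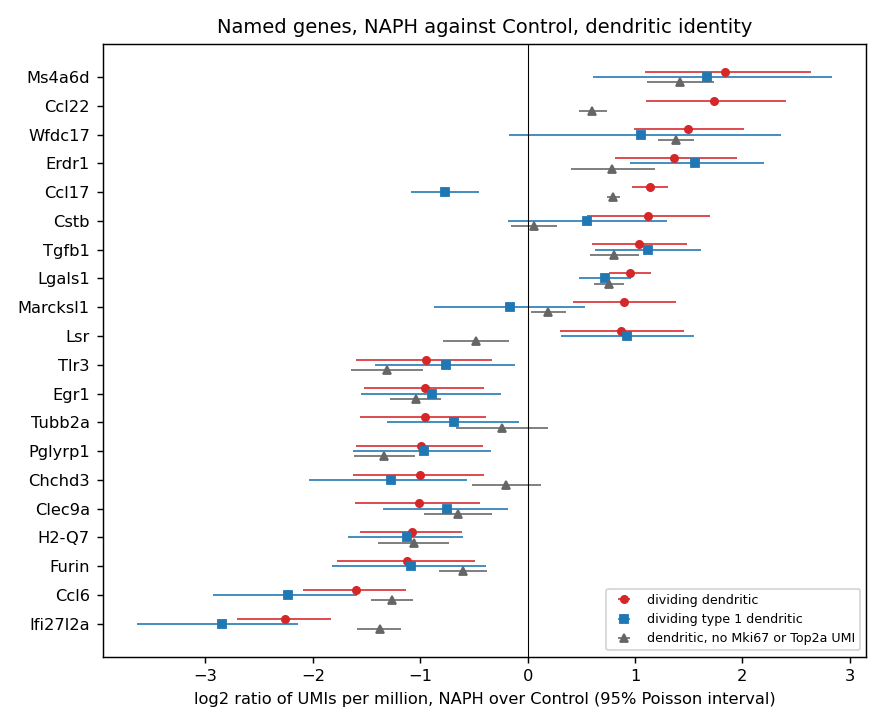
Log2 ratio of CPM, NAPH over Control (x axis), of the 20 genes named for dendritic identity, with exact 95% Poisson intervals; circles are dividing dendritic cells, squares dividing type 1 cells (not drawn for Ccl22, with 0 NAPH UMIs) and triangles dendritic cells with no Mki67 or Top2a UMI. Ccl17 lies above 0 in dividing dendritic cells and below 0 in type 1 cells, and Ifi27l2a and Ccl6 lie below 0 in all sets drawn.

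Of the other listed groups in dendritic members, the chemokines had 3 of 7 tested genes at least 2 times higher in NAPH (Ccl22, Ccl9, Ccl17) and 1 lower (Ccl6). Of these, Ccl17 was lower in type 1 members, and Ccl22 was at 1.23 times (0.895 to 1.68) over all members and turned to a log2 ratio of -0.27 over all members with thinned cells. The lipid gene Fabp5 (112 and 24.7 CPM) and the sterol gene Fdps (58.1 and 24.7 CPM) were higher and both lay within reach of free RNA. Il18, a cytokine gene, stood at 25.1 and 63.8 CPM (0.394 times). The lists for MHC class II (0 of 11), MHC class I (0 of 11), glycolysis (0 of 10), MYC and ribosome biogenesis (0 of 9), lysosome (0 of 8), dendritic transcription factors (0 of 7), growth factor receptors (0 of 6) and macrophage transcription factors (0 of 2) had no gene past 2-fold, and no gene of the interferon response list reached the UMI minimum. Over all members, the 10 genes named as lowest in NAPH included the macrophage genes Chil3, Ctsd and Apoe, and Ear2, which type 2 dendritic cells also held. Chil3, at 223 and 848 CPM, came from 1 NAPH and 8 Control cells. Of cycle genes there, E2f8, a repressor of E2F targets, stood at 37.2 and 78.5 CPM (0.473 times, 0.285 to 0.765) and Mcm4 at 22.3 and 50.2 CPM (0.444 times, 0.227 to 0.824).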

How the data were processed

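RNA was counted in Epcam-sorted lung cells, 1 NAPH and 1 Control library, which hold 38497783 and 41699755 UMIs. The authors deposited raw UMI counts per gene and barcode, made with Cell Ranger on mm10, per the submitters' processing notes; the sources used here give neither its version nor its settings. Members and lists were chosen with earlier results of these data known. UMIs were summed per library and class and scaled to CPM (Python 3.11.15, numpy 2.4.6, scipy 1.17.1). Ratios have exact conditional Poisson intervals, shares exact binomial (Clopper-Pearson) ones. Genes with at least 50 UMIs over both sides were used, with 2-fold as the threshold and no test. Named genes are the 10 highest and 10 lowest ratios with at least 100 CPM on one side, plus the members of each of 22 lists with the highest level, up to 4; listed genes past 2-fold or read against a named one, the D cyclins among them, were named after their values were seen. Passed over were ribosomal, mitochondrial, haemoglobin, predicted and sex-linked genes (Xist, Tsix and Y-linked ones) and genes within reach of free RNA, whose level in the members was below 0.2 times that in AT2, club, goblet or ciliated cells. Cells were thinned to 3514 UMIs, the lowest barcode total. Doublets (Scrublet in scanpy 1.11.5, 0.8% per 1000 barcodes) were kept in the main results. Scaling by edgeR 4.0.16 and DESeq2 1.42.0 (R 4.3.3) was tried as an alternative. The ratio step was tested on simulated counts.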

Additional observations from a re-analysis of the deposited data

How the results depend on the processing

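No paired analysis was possible because each group has 1 library, so no replicate could be left out either. Alternatives were limited by depth and by few cells. With every barcode thinned, the share of dividing myeloid cells was 0.353% in NAPH (1.36% unthinned) and 1.09% in Control (1.97%), with a ratio of 0.323. The dendritic share of NAPH members was then 100%. Dividing cells were then 2.73% of NAPH and 8.88% of Control type 1 dendritic cells, 4.28% and 4.41% of type 2 dendritic cells, and 0% of NAPH macrophages.

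The counts of genes past 2-fold, 37 higher and 44 lower in NAPH than in Control, were 184 and 249 with a gene minimum of 20 UMIs, 3 and 3 with 200 UMIs, 171 and 230 at 1.5-fold, and 7 and 21 with thinned cells. The lower count was 67 with the mean of per-cell shares and 25 within dendritic identity, and the higher count was 15 within type 1 identity. Counts for dividing against other cells, 371 higher and 351 lower in NAPH and 408 and 309 in Control, were 90 and 78 and 96 and 73 with 200 UMIs. Within macrophage identity they were 113 and 143 in NAPH, where 1 cell was dividing, and 93 and 176 in Control. The lower counts were 198 and 134 within dendritic and 65 and 88 within type 1 identity. For dendritic against macrophage members, 418 higher and 435 lower, they were 167 and 289 with NAPH cells only and 269 and 223 with Control cells only. The NAPH macrophage side of that setting was 1 cell. Counts with a stricter minimum or fewer cells test fewer genes; for the others the cause was not tested.

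Signs turned for NAPH over Control, on the log2 scale, in Ccl17 (-0.77) and Marcksl1 (-0.16) within type 1 identity, Ear2 (0.77) within dendritic identity and Ccl22 (-0.27) with thinned cells. For dividing over other cells they turned in NAPH for Gngt2 (0.18) within type 1 identity. In NAPH Ccnd2 (0.49) turned too within macrophage identity, where 1 cell was dividing. In Control they turned for Ear2 (0.69) within type 1 identity and Ctsd within dendritic (0.12) and type 1 identity (0.35). The settings within type 1 identity, and that without cells of lymphoid identity, were chosen after seeing the data. The 20 genes named for dendritic over macrophage members turned in none of 94 alternatives. The other 86 summary values moved less than the limits used. Their settings included TMM or DESeq2 scaling, no doublets, other UMI minimums, halved limits on epithelial RNA, another identity measure or no lymphoid cells. The scaling factor of dendritic over macrophage sums was -0.12 (TMM) and -0.11 (DESeq2) on the log2 scale. Ratios are divided by this factor, so TMM scaling moved them up. The DESeq2 factor was not applied to that comparison.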
